A study of Mus musculus with 13 samples.

Results

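Genes that stood apart from normal adrenal gland in the same direction, and by about the same amount, in all 3 kinds of mouse neuroblastoma were picked out of the array series. Expression is given on the log2 scale, on which 1 unit is a 2-fold change. A gene was taken as shared when the average of the 3 tumour group means differed from adrenal by at least 1 unit at an adjusted p under 0.05 (limma, Benjamini-Hochberg over all genes), every tumour array lay on the same side of every adrenal array, and the 3 tumour group means lay within 0.5 units of each other. Of 18193 genes, 1328 met these conditions. Of these, 522 were higher in tumours (2.87% of all genes) and 806 were lower (4.43%). Since the same values chose the genes, the levels of shared genes are a description and carry no p-value.

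All mice were of the C57BL/6 strain. The tumours grew in mice whose neural crest cells express a mutated form of the receptor tyrosine kinase ALK (labelled mutALK, 3 arrays), the transcription factor MYCN (4 arrays) or both (labelled MYCN AND mutated ALK, here double transgenic, 3 arrays), and were taken once they could be felt. The control was adrenal tissue labelled normal (3 arrays). By the levels of Xist and Y-linked genes, all 3 adrenal arrays were female, as were 2 of 3 mutALK, 1 of 4 MYCN and 1 of 3 double transgenic arrays. With sex as a covariate 470 of the 522 higher and 693 of the 806 lower genes were still chosen. The promoter of the transgenes, the ages and the site of each tumour are not given in the sources used here. A number in the titles is shared by 2 of the mutALK arrays and another by 2 of the MYCN arrays, and the labels do not say that every array came from another animal, so the p-values reflect only how far these samples scatter, which may be technical.

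Neuroblastoma is a tumour of young children that arises in the sympathetic lineage, from neural crest cells that also give rise to the chromaffin cells of the adrenal medulla. The adrenal gland used as control is for the larger part cortex, whose cells make steroid hormones from cholesterol under pituitary control, around a small medulla that stores catecholamines. In whole-tissue RNA, fewer cells of a type and less RNA per cell cannot be told apart.

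The labels were first set against marker genes. The mean of 7 adrenal cortex markers lay between 11.66 and 13.06 in the adrenal arrays and between 5.35 and 6.77 in the tumour arrays. The mean of 7 chromaffin and sympathetic markers lay between 10.10 and 11.18 in adrenal and between 9.27 and 11.30 in tumours, so both tissues carried them. The mean of 15 liver markers was above 8 in 5 arrays (mutALK 1 and 3, MYCN 2, adrenal 2 and double transgenic 1) and at most 5.59 in the others. The array adrenal 2 stood apart further: its mean of 29 neuronal structure genes was 9.80 where adrenal 1 and 3 had 6.79 and 6.27, and its mean of 9 fat cell markers was 12.33, against 10.84 and 10.33. The part of these markers in the results was not tested beyond leaving the arrays out, and the list counts below are given without adrenal 2, or without the 5 liver arrays, where that moves them by over 1.5 times. Without adrenal 2 the rule chose 553 higher and 875 lower genes, of which 472 and 752 were among the 522 and 806. Without the 5 liver arrays it chose 450 and 796, of which 336 and 559 were among them, and the mutALK mean then rests on 1 array. Of the 109 shared genes named here or in the closing observations, 105 were still chosen without adrenal 2 and 73 without the liver arrays. Of the 36 others, 33 had tumour group means more than 0.5 apart in the arrays left.

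Mycn and Alk, the mouse counterparts of the transgenes, were not shared genes. The brightest Mycn probe set was at 12.03 ± 0.33 (SD) in mutALK (n = 3), 6.35 ± 0.86 in MYCN (n = 4), 10.19 ± 0.64 in double transgenic (n = 3) and 7.69 ± 0.92 in adrenal (n = 3), so it was low in the arrays labelled MYCN (-1.34 against adrenal, and -0.83 without adrenal 1). The other Mycn probe sets, both dimmer, differed from adrenal by 0.91 and -0.21 on average. Their tumour group means spanned 0.15 and 0.03, so the wide spread of Mycn rests on the brightest probe set. Whether any of them reads the transgene is not known here, so Mycn does not check the labels. Alk was at 8.79 ± 0.33, 9.44 ± 0.34 and 9.11 ± 0.37 in the same tumour groups and at 5.17 ± 0.29 in adrenal, and it missed the limit because its tumour group means spanned 0.66.

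Over all genes, 51.5% differed between the average tumour group and adrenal, 4695 higher (25.8%) and 4668 lower (25.7%). These shares are the background for all list counts of rises and falls. Every tumour array lay above every adrenal array for 2819 genes (15.5%) and below for 2959 (16.3%). With fewer arrays these shares grew, to 19.8% and 20.8% without adrenal 2, and to 22.3% and 23.5% without the 5 liver arrays. The 3 tumour groups differed among themselves in 5961 genes (32.8%; limma's moderated F test at an adjusted p under 0.05). Among non-overlapping genes of at least 1 unit, the shared ones were the smaller share on both sides, 522 of 1804 higher and 806 of 1971 lower. By size, 2 of the shared higher genes and 84 of the 1282 with a wider spread reached 4 units, and 42 of the shared lower genes and 102 of the 1165 with a wider spread did. A fixed limit on the spread also admits genes that are near the bottom of the scale in every tumour. All 10 tumour arrays were under 5 for 138 of the 806 shared lower genes (17.1%), for 25 of the 1165 wider ones (2.15%) and for 3465 of all genes (19.0%). At the limit itself, Mybl1 (1.35; without the 5 liver arrays 0.88, limma's adjusted p = 0.061) was just inside and Eftud2 (1.14) just outside among higher genes, and Fas (-1.95) just inside and Gimap9 (-1.31) just outside among lower ones.

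**Figure D1:**
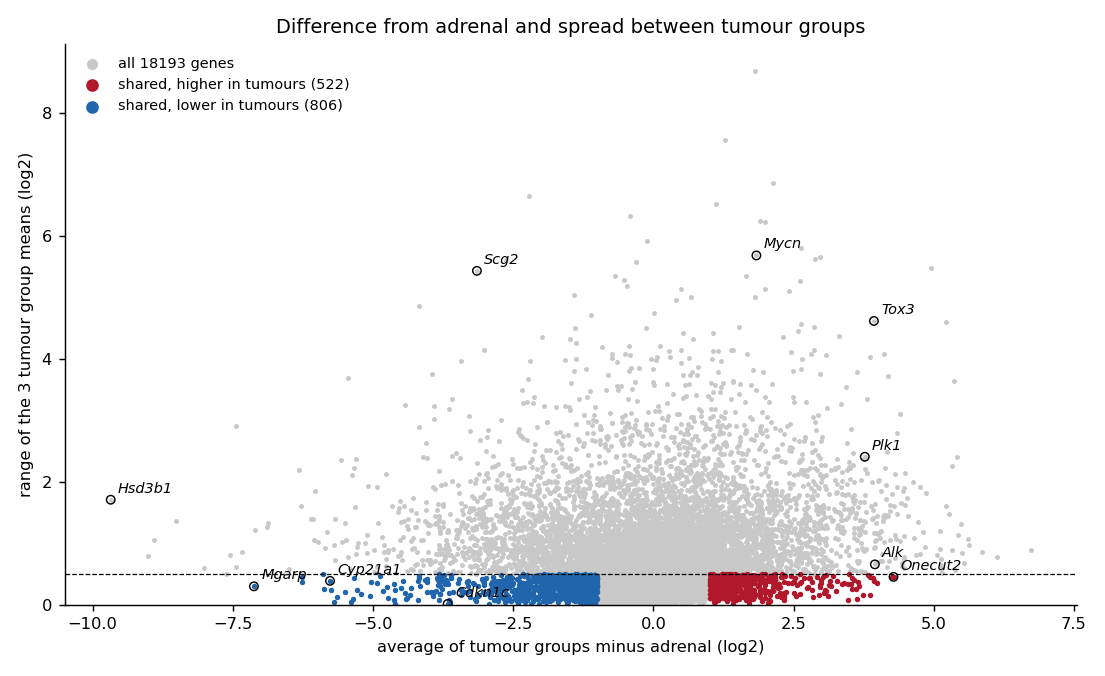
Each point is 1 of 18193 genes, placed by the average of the 3 tumour groups minus adrenal (horizontal, log2) and by the range of the 3 tumour group means (vertical, log2); the dashed line is the limit of 0.5. Shared genes (522 red, 806 blue) lie under the line, while Mycn, Scg2 and Tox3 lie far above it with ranges of 5.68, 5.43 and 4.62. Each gene is read by its brightest probe set, and the other Mycn probe sets had ranges of 0.15 and 0.03.

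Onecut2, a homeodomain transcription factor, had the largest shared rise, 4.28 ± 0.38 (SE). Apba2, an adaptor protein of neurons that binds the amyloid precursor protein, followed with 4.26 ± 0.51, and Tox, an HMG-box factor, with 3.94 ± 0.30. Basp1, a membrane protein of growth cones, and Cdk5r1, the activator of the neuronal kinase Cdk5, were higher by 3.91 ± 0.53 and 3.86 ± 0.30. The RNA-binding proteins Mex3b and Mex3a (3.86 ± 0.26 and 3.83 ± 0.19), the actin regulator Cracd (3.99 ± 0.08), the calmodulin-binding factor Camta1 (3.73 ± 0.53), the neural zinc finger factor Myt1l (3.66 ± 0.48), the small GTPase Diras2 (3.64 ± 0.40) and Ttc9b (3.63 ± 0.41) completed the first 12.

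Onecut2 read 9.03, 7.78 and 8.79 in mutALK arrays 1 to 3, 8.86, 8.76, 8.17 and 7.72 in MYCN arrays 1 to 4, 8.89, 9.64 and 7.98 in double transgenic arrays 1 to 3, and 3.85, 4.24 and 4.81 in adrenal arrays 1 to 3. No tumour array came near the adrenal ones, and the tumour groups overlapped each other. Basp1, in the same order, read 13.63, 13.57 and 13.64, then 13.55, 13.28, 13.38 and 13.27, then 13.81, 13.75 and 13.86, against 8.94, 11.85 and 8.28. The tumours were within 1 unit of each other here, and the spread lay in the adrenal gland, where adrenal 2 was the highest. The difference was 4.99 without that array. Tox read 9.69, 9.33 and 9.30, then 9.49, 9.26, 9.97 and 8.70, then 9.14, 9.19 and 8.84, against 5.18, 6.22 and 4.65. The most even of the large rises were Bex1, a small brain-expressed protein (3.47 ± 0.22, range of tumour group means 0.08), Ttc9b (0.10), Wasf1, which drives actin branching (3.12 ± 0.18, range 0.14), Camta1 (0.15) and Cdk5r1 (0.16).

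Probe sets of 1 gene did not always read alike. The 4 other probe sets of Cracd, all dimmer, differed by 0.02 to 0.28, and the mean over all of them gave 0.89. The 1 other probe set of Diras2 read 0.36. For Camta1, Cdk5r1 and Myt1l the next brightest probe set read 4.43, 4.04 and 3.34, near the brightest, and dimmer ones brought the means to 2.21, 2.46 and 1.95. For Onecut2 the 2 other probe sets read 4.32 and 3.39, and for Elavl3 they read 3.59 and 4.41. The tumour group means of these Onecut2 probe sets spanned 1.12 and 0.86, above the limit, so Onecut2 was shared by its brightest probe set only. For Elavl3 they spanned 0.16 and 0.53, the latter above the limit. Without the 5 liver arrays the brightest Onecut2 probe set missed the limit too, with a mutALK difference of 3.44 and a double transgenic one of 4.48.

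**Figure D2:**
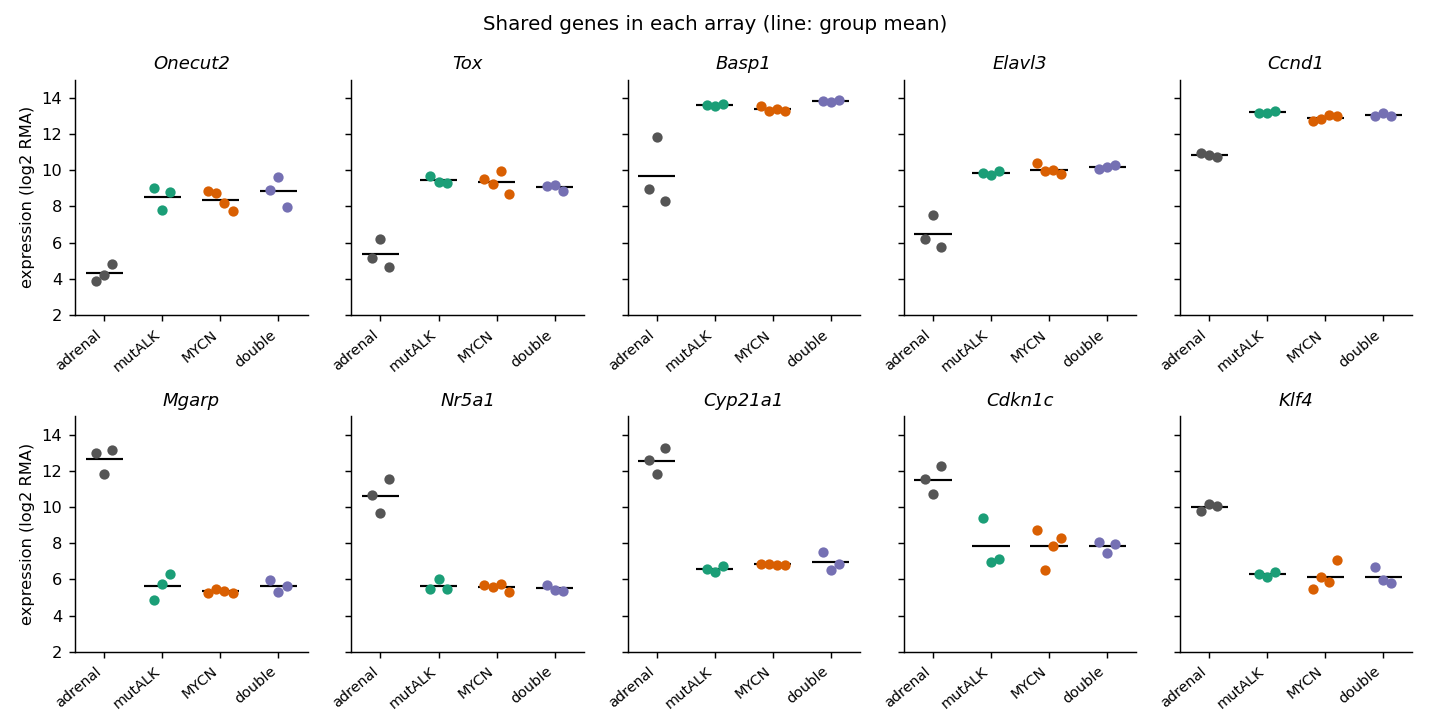
Expression (log2 RMA) of 5 shared higher genes (top) and 5 shared lower genes (bottom) in each of the 13 arrays, by group; lines are group means. In every panel the 10 tumour arrays lie on one side of the 3 adrenal arrays; Cdkn1c is the panel whose tumour group means agree most (7.82, 7.83 and 7.82) while its single tumour arrays run from 6.51 to 9.40.

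Promoters were compared because the shared genes move together by definition. Letters from 250 bases before to 50 after the start of transcription were taken from RefSeq (GRCm38.p6) for genes with 1 listed promoter, which were 346 of the 522 higher genes, 499 of the 806 lower genes and 11791 of all measured genes. Letters that E2F factors are known to bind (TTTGGCGC, TTTCGCGC or TTCCCGCC on either strand) stood in 8.09% of the higher, 3.81% of the lower and 4.63% of all promoters. The letters CAAGGTCA, known for the steroidogenic factor NR5A1, stood in 0.58%, 2.00% and 1.25% on either strand, which were 2, 10 and 147 promoters. The E-box CACGTG, the palindrome that MYC family proteins bind, stood in 10.7%, 9.42% and 9.04%. The ratio of observed to chance CpG was above 0.6 in 82.1% of the higher, 59.9% of the lower and 57.4% of all promoters, with a median GC content of 62.3%, 60.3% and 58.7%. These are counts of letters, with no test and no statement on binding. The median span of the genes themselves was 28.3 kb in the higher set, 19.5 kb in the lower set and 20.2 kb over all genes.

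Shown are examples of shared genes whose upstream 250 bases hold the letters. Basp1 and Mex3a, of the 12 largest rises, hold E2F letters. NR5A1 letters are shown for Cryba4, a crystallin (-4.82), and Rilp, an effector of the lysosomal GTPase Rab7 (-2.06). Cryba4 and Rilp are not among the 12 largest falls and were chosen after the values were seen. Each sequence runs 5′ to 3′ on the strand of its gene with up to 60 bases on either side, and capitals mark the letters, here all in reverse complement. Basp1 lies at chr15:25413844-25413971 (minus strand), Mex3a at chr3:88531793-88531920 (plus), Cryba4 at chr5:112252519-112252598 (minus) and Rilp at chr11:75509904-75510031 (plus), and the letters start 147, 93, 20 and 130 bases before the start of transcription.
Basp1: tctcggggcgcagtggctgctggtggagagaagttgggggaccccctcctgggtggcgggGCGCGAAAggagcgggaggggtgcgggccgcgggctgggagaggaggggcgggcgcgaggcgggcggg
Mex3a: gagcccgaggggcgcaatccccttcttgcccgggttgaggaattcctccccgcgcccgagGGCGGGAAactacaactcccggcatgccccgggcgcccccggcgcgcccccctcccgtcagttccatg
Cryba4: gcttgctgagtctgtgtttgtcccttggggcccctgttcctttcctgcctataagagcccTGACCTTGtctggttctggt
Rilp: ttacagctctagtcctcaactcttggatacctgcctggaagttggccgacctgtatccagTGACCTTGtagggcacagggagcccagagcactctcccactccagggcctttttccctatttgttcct

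Neuronal lists were higher in tumours. Few of their members were shared, as was the case over all genes, of which 2.87% were shared higher and 4.43% shared lower. Of 29 neuronal structure genes (tubulins, neurofilaments, microtubule-associated and adhesion proteins), 25 rose, none fell and 4 did not pass the test, with a median of 3.52 against -0.01 over all genes. The median was 3.90 for mutALK tumours, 2.87 for MYCN tumours and 3.67 for those with both. In 14 of them every tumour array lay above every adrenal array, and in 24 without adrenal 2, the array with high neuronal levels, or without the 5 liver arrays. The share over all genes was 15.5%, with 19.8% and 22.3% without these arrays. Only Elavl3, an RNA-binding protein of neurons, met the limit on the spread, with 9.86, 9.72 and 9.94 in mutALK, 10.42, 9.95, 10.01 and 9.78 in MYCN, 10.07, 10.17 and 10.28 in double transgenic tumours and 6.22, 7.52 and 5.77 in adrenal. No gene of the list was shared without the 5 liver arrays. Dpysl3, which guides growing axons, is a member with a wide spread: it differed from adrenal by 4.10 ± 0.69 in mutALK, by 0.81 ± 0.65 in MYCN and by 3.26 ± 0.69 in tumours with both transgenes. Its MYCN value was 1.86 without adrenal 2, 2.01 without the 5 liver arrays, and 0.49 and 0.08 without adrenal 1 and adrenal 3. Of 26 synaptic vesicle genes, 16 rose and 1 fell. The one that fell, Sypl, a synaptophysin relative found outside neurons, was also the one shared (-2.07 ± 0.15). Sypl missed the limit without the 5 liver arrays, where 1 other gene of the list was shared. In 3 of the 26 every tumour array lay above adrenal, a smaller share than the 15.5% of all genes. In 19 it did so without adrenal 2 or without the liver arrays, where 19.8% and 22.3% of all genes did.

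Among 35 transcription regulators of the sympathoadrenal and neural lineage, 23 rose, 4 fell and 8 did not pass the test (median 2.07). The shared ones were Tox, Neurod1, Hand2 and Sox4. Hand2, which sets the noradrenergic fate of sympathetic neurons, was higher by 2.14 ± 0.38, and Sox4, a factor of immature neural cells, by 2.07 ± 0.10 with a range of 0.16. Hand2 read 12.31, 12.50 and 12.42 in mutALK, 12.30, 12.06, 12.16 and 11.78 in MYCN, 11.75, 11.91 and 12.43 in double transgenic tumours and 10.12, 11.26 and 8.71 in adrenal, with adrenal 2 again the highest of its group. The other Hand2 probe sets, both dimmer, differed by 1.09 and 1.27. Their tumour group means spanned 0.98 and 0.96, above the limit, so Hand2 was shared by its brightest probe set only. Neurod1, a neurogenic bHLH factor, was higher by 3.59 ± 0.73, and its adjusted p (limma, all genes) was 0.055 without the 5 liver arrays. Its MYCN arrays ran from 5.71 to 10.57, so its group means lay close while single tumours lay far apart. Tox3, another HMG-box factor of the list, differed by 1.32 ± 0.79 in mutALK, by 5.94 ± 0.74 in MYCN and by 4.54 ± 0.79 in tumours with both transgenes. Its adrenal arrays read 7.47, 3.87 and 6.31, and the mutALK value was 0.31 without adrenal 2, 2.11 without adrenal 1 and -0.81 without the 5 liver arrays.

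The cell cycle lists were higher in all tumours and uneven between them. Over all genes 25.8% rose, 2.87% were shared rises and 32.8% differed between the tumour groups. Of 39 mitosis genes 38 rose and 1 fell, and in 37 every tumour array lay above adrenal, yet none was shared and 36 differed between the tumour groups. Their median was 2.59 for mutALK tumours, 4.14 for MYCN tumours and 3.67 for those with both. Plk1, a kinase of mitotic entry, stood for them with 2.48 ± 0.24, 4.89 ± 0.22 and 3.94 ± 0.24. Of 31 centromere and kinetochore genes 29 rose and 2 were shared (1, Cenpt, without the 5 liver arrays), Cenpt (2.00 ± 0.11), which links the kinetochore to centromeric DNA, and Ska2 (1.50 ± 0.14). Ska3, in the same complex as Ska2, differed by 1.53 ± 0.34, 3.73 ± 0.32 and 2.82 ± 0.34. Of 45 DNA replication genes 44 rose and 2 were shared (1, Gins3, without the 5 liver arrays), the primase subunit Prim2 (1.80 ± 0.18) and the helicase subunit Gins3 (1.08 ± 0.14), while the helicase factor Cdc45 differed by 1.72 ± 0.27 (1.07 without the 5 liver arrays), 3.62 ± 0.26 and 3.11 ± 0.27. In homologous recombination and checkpoint genes, 26 of 29 rose and none was shared. Splicing factors (31 of 34 rose, median 1.02) held 1 shared gene, Hnrnpab (1.23 ± 0.12), and ribosome biogenesis genes (30 of 34 rose, median 0.95) held none, and 2 without the 5 liver arrays.

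Control of the G1 phase was the cell cycle list with the most shared genes, 7 of 30, and they went both ways. Without the 5 liver arrays 4 of the list were shared, of which Ccnd1 and Rbl2 were among the 7, and 1 of the 4 fell. Ccnd1, cyclin D1, which starts the passage through G1, read 13.15, 13.14 and 13.29 in mutALK, 12.75, 12.83, 13.06 and 12.98 in MYCN, 13.003, 13.19 and 13.01 in double transgenic tumours and 10.94, 10.84 and 10.73 in adrenal. The difference was 2.22 ± 0.09, with all 10 tumour arrays within 1 unit of each other, and its 2 other probe sets gave 2.23 and 3.24. Also higher were the transcription factor E2f3 (1.30 ± 0.15), the pocket protein Rbl1 (1.11 ± 0.21) and the kinase inhibitor Cdkn1b (1.02 ± 0.15). Lower were the kinase Cdk6, a partner of D cyclins (-1.88 ± 0.29), the pocket protein Rbl2 (-1.05 ± 0.16) and Cdkn1c, an imprinted kinase inhibitor (-3.67 ± 0.56). Cdkn1c had the most even group means of the large falls, -3.67, -3.66 and -3.67 against adrenal. Its single arrays were not even, with 9.40, 6.94 and 7.12 in mutALK, 8.71, 6.51, 7.82 and 8.29 in MYCN, 8.04, 7.45 and 7.96 in double transgenic tumours and 11.54, 10.69 and 12.24 in adrenal. The 2 other D cyclins went the other way on average, Ccnd2 with -4.08 ± 0.43 and Ccnd3 with -3.39 ± 0.19, and both had a spread above the limit. Skp2, which targets Cdkn1b for destruction, differed by 1.96 ± 0.38 (1.04 without the 5 liver arrays), 4.07 ± 0.36 and 2.88 ± 0.38.

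Among 34 chromatin factors, 29 rose and 3 fell. The shared ones were the DNA methyltransferase Dnmt3a (1.93 ± 0.10), the histone variant H2az1 (1.67 ± 0.13), the Polycomb reader Cbx2 (1.65 ± 0.14) and the deacetylase Hdac2 (1.44 ± 0.10) among the higher genes, and another Polycomb reader, Cbx7 (-1.15 ± 0.13), among the lower. Of these, Dnmt3a, Hdac2 and H2az1 were the 3 shared without the 5 liver arrays. Dnmt3a read 10.75, 10.68 and 10.66 in mutALK, 10.65, 10.59, 10.68 and 10.79 in MYCN, 10.49, 10.82 and 10.60 in double transgenic tumours and 8.92, 8.47 and 8.83 in adrenal. Its tumour group means spanned 0.06. The other Dnmt3a probe sets, all dimmer, differed by 2.17, 1.68, 2.12 and 0.65, from brighter to dimmer. Their tumour group means spanned 0.07, 0.74, 0.54 and 1.13, so Dnmt3a was within the limit by its brightest and next brightest probe sets only. The histone variant H2ax differed by 0.75 ± 0.25 (0.43 without the 5 liver arrays), 2.65 ± 0.23 and 2.13 ± 0.25. For Cbx2 the mean over all its probe sets was 0.87.

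**Figure D3:**
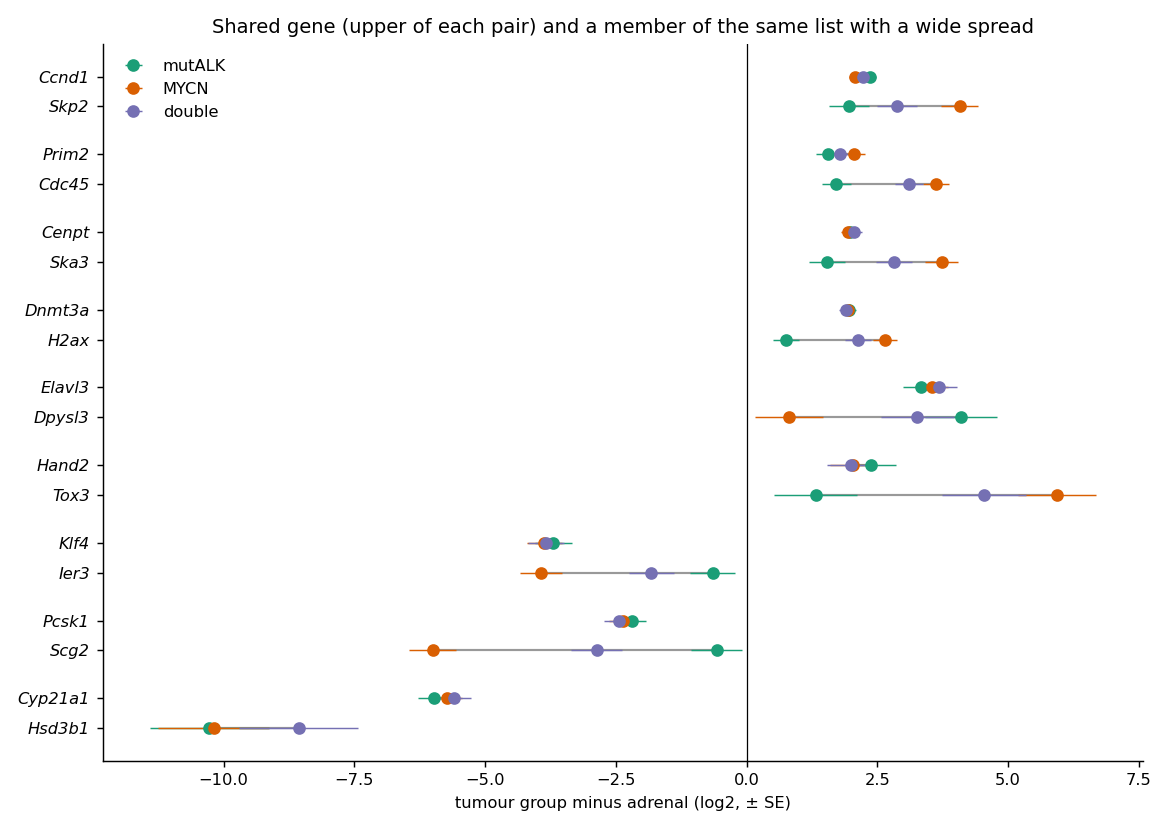
Difference from adrenal (log2, ± SE) in mutALK, MYCN and double transgenic tumours for 9 shared genes, each above a gene of the same list whose tumour groups lie far apart. The shared genes' points lie together, as the choice of genes requires, while Scg2 spans -0.57 to -6.01 and Tox3 1.32 to 5.94; the mutALK value of Tox3 was 0.31 without adrenal 2.

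The 12 largest shared falls held 2 genes of the steroid synthesis list, Cyp21a1 and Nr0b1, given below with that list. Mgarp, a mitochondrial protein of steroid-producing cells, had the largest shared fall (-7.12 ± 0.30, 139-fold). It read 4.86, 5.75 and 6.29 in mutALK, 5.24, 5.46, 5.38 and 5.26 in MYCN, 5.95, 5.28 and 5.63 in double transgenic tumours and 12.97, 11.84 and 13.15 in adrenal. Next came Ecrg4, a secreted peptide precursor (-6.26 ± 0.16), Klhdc8a (-6.26 ± 0.24), the membrane peptidase Mme (-5.89 ± 0.59), the mitochondrial enzyme Adhfe1 (-5.88 ± 0.58), the stress kinase Mapk13 (-5.75 ± 0.37), Klhl14 (-5.69 ± 0.30), the homeobox gene Hoxb9 (-5.51 ± 0.21), Dhdh (-5.35 ± 0.21) and the aldehyde oxidase Aox1 (-5.34 ± 0.38). Hoxb9 ran from 4.75 to 5.27 in the tumour arrays and from 9.92 to 11.18 in adrenal. Klhl14 ran from 2.89 to 3.18 in the tumours, near the lowest value of the whole table (2.04), so its fall and the evenness of its tumour group means (range 0.05) are read at the bottom of the scale. Mme (2.45 to 5.56) and Ecrg4 (4.09 to 4.80) were also low in the tumours. The mean over all probe sets was -3.75 for Mme and -3.41 for Adhfe1.

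All 13 measured steroid synthesis genes fell with no overlap (median -5.77), and 4 of them were shared. They were Cyp21a1, the steroid 21-hydroxylase (-5.77 ± 0.25), Cyp11b2, the aldosterone synthase (-4.32 ± 0.43), and 2 nuclear receptors that direct the cortex programme, Nr0b1 (-5.63 ± 0.37) and Nr5a1 (-5.05 ± 0.29). Nr5a1 read 5.45, 6.02 and 5.47 in mutALK, 5.68, 5.55, 5.75 and 5.29 in MYCN, 5.70, 5.43 and 5.38 in double transgenic tumours and 10.66, 9.67 and 11.55 in adrenal. A second, dimmer Nr5a1 probe set differed by -0.26, which brought the mean of both to -2.66. Cyp21a1 read 6.58, 6.43 and 6.71, then 6.85, 6.85, 6.81 and 6.78, then 7.52, 6.54 and 6.83, against 12.58, 11.83 and 13.24. Tumour group means of Nr0b1 (3.52 to 3.65) and Cyp11b2 (3.96 to 4.24) were near the bottom of the scale. The other 9 had a wider spread, and the array double transgenic 1 stood out among the tumours: its mean over the list was 6.66, against at most 5.85 in the other tumour arrays. Hsd3b1, a dehydrogenase of the pathway, was at 9.43 in it and at most 4.25 in the other tumour arrays. Without the 5 liver arrays, of which it is 1, 8 of the 13 were shared. Of 19 cholesterol synthesis genes 13 fell and 1 rose (2 without adrenal 2). The shared ones were Insig1, a brake on sterol synthesis (-1.76 ± 0.30), and the sterol isomerase Ebp (-1.20 ± 0.23).

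**Figure D4:**
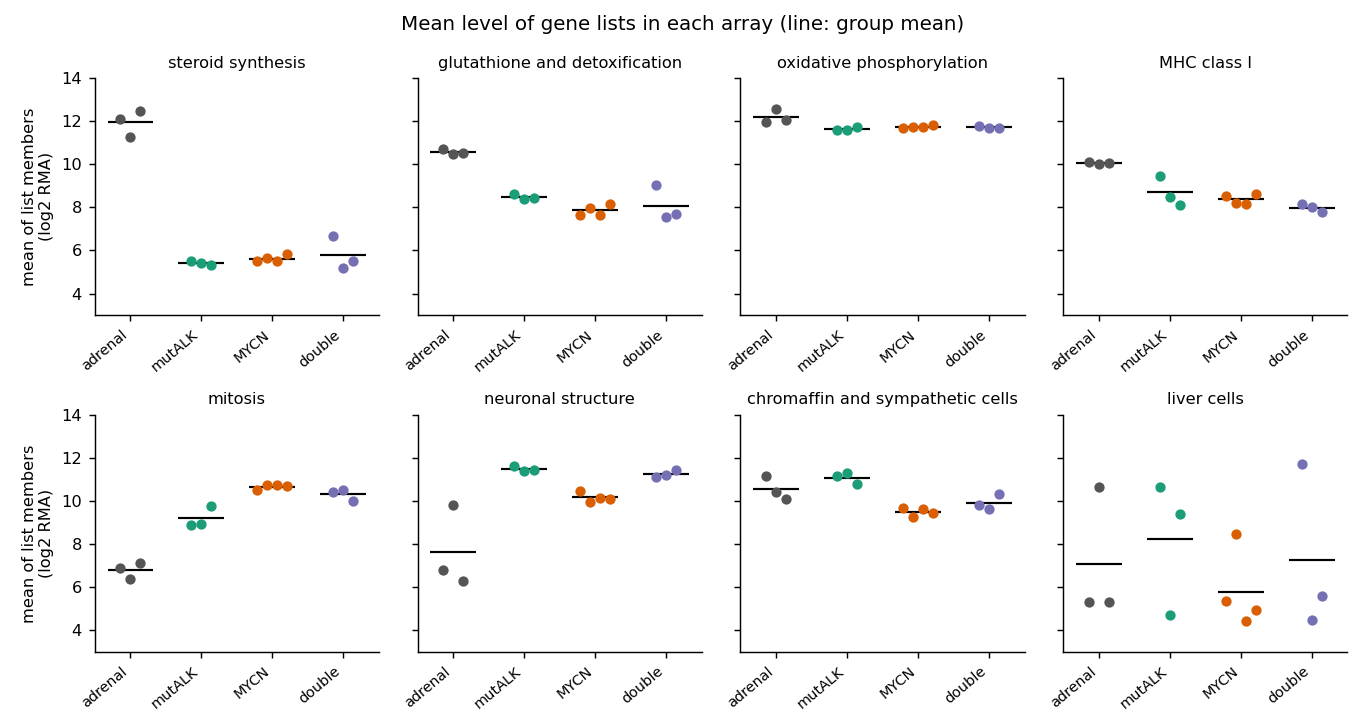
Mean level (log2 RMA) of the members of 8 gene lists in each array, by group; lines are group means. Steroid synthesis, detoxification and MHC class I lie lower in all tumours and mitosis higher; adrenal 2 is near the tumours for neuronal structure (9.80), and the liver list is above 8 in 5 arrays spread over the 4 groups.

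Metabolic genes with a role in detoxification, peroxisomes and mitochondria formed the next group of falls. Of 30 glutathione and detoxification genes, 25 fell, 1 rose and 4 did not pass the test, and in 21 every tumour array lay below adrenal (median -2.45). The shared falls were Gsta4 (-4.07 ± 0.38) and Gstt2 (-2.40 ± 0.27), which couple glutathione to reactive compounds, the epoxide hydrolase Ephx2 (-3.86 ± 0.56), the glutathione synthetase Gss (-1.45 ± 0.18) and the superoxide dismutase Sod1 (-1.07 ± 0.09). Gstm5, another glutathione transferase, was the shared rise (1.19 ± 0.20). Without the 5 liver arrays 4 genes of the list were shared, all falls, and Sod1 was the one of them named here. Gsta4 read 5.57, 6.20 and 4.95 in mutALK, 5.47, 5.71, 5.50 and 6.78 in MYCN, 6.96, 5.47 and 5.49 in double transgenic tumours and 9.89, 10.16 and 9.57 in adrenal. Of 26 peroxisome genes 23 fell and none rose. The shared ones were the import factors Pex7 (-1.80 ± 0.17) and Pex13 (-1.61 ± 0.08) and the lipid enzymes Scp2 (-1.57 ± 0.25) and Hsd17b4 (-1.46 ± 0.18).

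Oxidative phosphorylation genes fell by little. Of 41, 29 fell, none rose (1 without adrenal 2) and 12 did not pass the test, with a median of -0.48 and group medians of -0.52, -0.52 and -0.51. The median range of their tumour group means was 0.18, against 0.43 over all genes, and 2 of 41 differed between the tumour groups (8 without adrenal 2). Only 3 fell by 1 unit or more within the limit, Sdha (-1.46 ± 0.14) and Sdhb (-1.09 ± 0.10), both subunits of succinate dehydrogenase, and the complex III subunit Uqcrq (-1.28 ± 0.14). Sdhb read 11.31, 11.39 and 11.40 in mutALK, 11.46, 11.50, 11.56 and 11.65 in MYCN, 11.52, 11.34 and 11.47 in double transgenic tumours and 12.42, 12.81 and 12.40 in adrenal. The mean over all 4 probe sets of Uqcrq was -0.34. The count of falls was 23 without adrenal 2, whose list mean of 12.59 was above the 11.98 and 12.08 of the other adrenal arrays, and 19 without the 5 liver arrays, with a median of -0.30 in both cases. Markers of fat cells, another source of mitochondrial and lipid transcripts, moved along: 9 of 9 fell, and their mean was 10.33 to 12.33 in adrenal and 5.01 to 9.02 in tumours. Their part in these falls was not tested.

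Immune and signal-response lists were lower too. Of 16 genes of MHC class I presentation, which shows peptides to T cells, 15 fell and none rose (median -1.98). In 12 every tumour array lay below adrenal. The shared ones were Psmb10 (-1.13 ± 0.14) and Psme1 (-1.08 ± 0.15), both parts of the immunoproteasome system. Of 24 interferon response genes, 22 fell and 1 rose. In 10 every tumour array lay below adrenal, and in 20 without the 5 liver arrays. The share over all genes was 16.3%, and 23.5% without the 5 liver arrays. The RNA sensor Ddx58 was the shared one (-2.68 ± 0.30), and 4 were shared without the 5 liver arrays. Of 24 immediate early genes, which respond to signals within minutes, 19 fell and none rose, and 6 were shared: Fosl2 (-3.81 ± 0.33), Klf4 (-3.80 ± 0.29), Btg2 (-1.84 ± 0.26), Fosb (-1.81 ± 0.12), Ier2 (-1.30 ± 0.27) and Jun (-1.04 ± 0.16). Only 3 of the list were shared without the 5 liver arrays. Klf4 read 6.31, 6.15 and 6.42 in mutALK, 5.46, 6.10, 5.84 and 7.08 in MYCN, 6.69, 5.94 and 5.82 in double transgenic tumours and 9.75, 10.18 and 10.03 in adrenal. For Fosl2 the mean over its 2 probe sets was -2.22. Ier3, of the same list, differed by -0.65 ± 0.43 in mutALK, by -3.94 ± 0.40 in MYCN and by -1.83 ± 0.43 in tumours with both transgenes. The mutALK value was -0.43 without adrenal 1. Endothelial markers fell in 22 of 23 cases, all 22 with no overlap; Nos3, the endothelial nitric oxide synthase, was the shared one (-1.85 ± 0.25). Of 13 macrophage markers 3 rose and 1 fell, and of 6 T cell markers 1 fell, and neither of these falls was called without adrenal 2. Over all genes 25.8% rose and 25.7% fell, so these counts do not exceed the background.

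Catecholamine and granule genes, the product of the medulla, went both ways. Over all genes 25.8% rose and 25.7% fell. Of 21, 3 rose, 9 fell and 9 did not pass the test, and 14 differed between the tumour groups (9 without the 5 liver arrays). Without adrenal 2, or without the 5 liver arrays, 5 rose. In 5 of the 21 every tumour array lay below adrenal and in 1 above (3 without adrenal 2), against 16.3% and 15.5% of all genes. The 2 shared genes both fell, where 4.43% of all genes were shared lower: Pcsk1, which cleaves prohormones in granules (-2.34 ± 0.23), and Pnmt, which makes adrenaline from noradrenaline (-1.85 ± 0.26). Pnmt read 7.78, 7.78 and 8.06 in mutALK, 7.31, 7.63, 7.59 and 7.47 in MYCN, 7.68, 7.47 and 8.01 in double transgenic tumours and 10.40, 8.70 and 9.55 in adrenal. Its other probe sets, both dimmer, differed by -4.45 (range of tumour group means 0.73) and -0.44 (range 0.10). Scg2, a granule protein, differed by -0.57 ± 0.48 in mutALK, by -6.01 ± 0.45 in MYCN and by -2.86 ± 0.48 in tumours with both transgenes. The mutALK value ran from -0.92 without adrenal 2 to -0.12 without adrenal 1. In the list of 7 oncofetal RNA-binding and growth genes, 4 rose and 1 fell, 1 was shared (2 without adrenal 2), and Hmga2, a chromatin protein of embryonic tissue, was the shared one (-1.05 ± 0.18), and missed the limits without the 5 liver arrays.

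**Figure D5:**
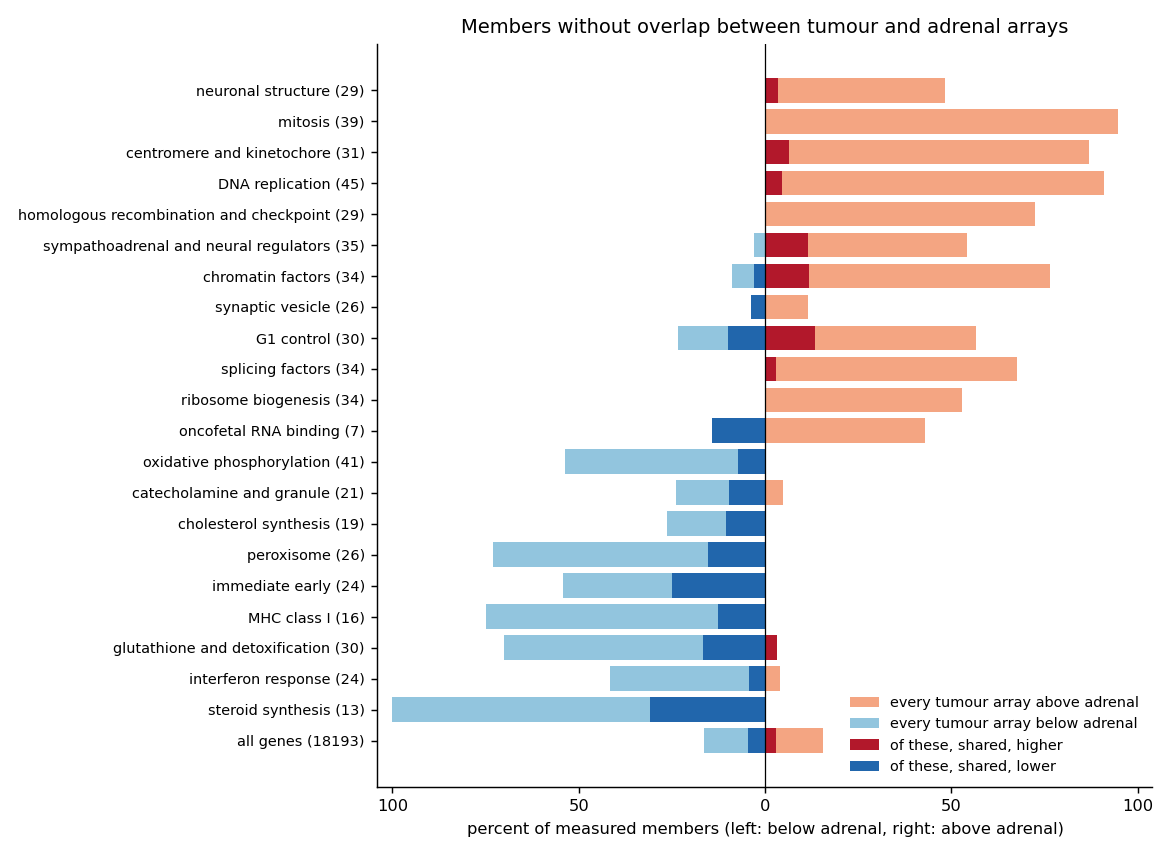
Percent of the measured members of 21 gene lists (number in brackets) for which every tumour array lies above (right) or below (left) every adrenal array, with the shared genes in dark colour; the lowest bar gives all 18193 genes. The mitosis bar is long with no dark part (37 of 39 members, none shared), and steroid synthesis reaches 13 of 13 with 4 shared.

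Probe sets that the choice of genes did not use gave another reading of the same RNA. The 342 shared higher genes with further probe sets had 701 of them. Every tumour array lay above every adrenal array in 352 (50.2%), against 13.6% of all 16752 unused probe sets, and 1 lay below. Their median difference was 0.83, against 0.03 over all unused ones, and 90.3% were positive. The 415 shared lower genes had 723 further probe sets, of which 423 lay below in every tumour array (58.5%, against 12.1%) and 3 above. Their median difference was -1.002, and 91.7% were negative. Those probe sets are the dimmer ones of each gene, and they share the RNA and the arrays with the ones used.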

How the data were processed

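The values are log2 expression deposited by the authors for 45101 Affymetrix probe sets on 13 arrays, made with RMA and Partek per the submitters' processing notes; no version is stated there. RMA summarises and quantile-normalizes probes, so a shift common to most genes would not show. Values ran from 2.04 to 14.5 and array medians from 5.80 to 5.90. The number of arrays limits the precision. Detection calls were not used here.

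Groups were taken from the labels. Probe sets with 1 gene symbol (34945; 932 had several and 9160 none) were used, and each gene took its brightest over all arrays, giving 18193 genes. RefSeq symbols (GRCm38.p6) were matched for 34741 probe sets, and 0 symbols changed. All 13 arrays entered 1 fit of 4 group means in limma 3.58.1 (R 4.3.3, 9 residual and 2.28 prior degrees of freedom, Benjamini-Hochberg adjustment, two-sided). The 3 tumour groups share the adrenal arrays. The members, the 37 gene lists and the tests were chosen with earlier results of these data known. Named are Mycn and Alk, the 12 largest shared rises and falls, the 5 most even of at least 3 units on each side, shared members of lists, up to 2 members per list with the widest spread, and genes next to the limit; a choice among these, and the remaining shared list members, Ccnd2, Ccnd3, Cryba4 and Rilp, was made after the values were seen. Alternatives were quantile normalization again, median centring, the mean of all probe sets, leaving out dim genes, a variance trend, array weights, pooled tumours, title numbers averaged or as a block, sex as a covariate, other limits, and leaving out each array. Leaving out the 5 liver arrays was planned for the counts of genes; for the list counts this and leaving out adrenal 2 were added after the data were seen. The fit was tested on simulated data. Plots come from matplotlib 3.10.9 (Python 3.11.15).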

Additional observations from a re-analysis of the deposited data

Results flagged for a closer look

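In the 4 MYCN arrays, 1 array lay far from the other 3 for 6 of the 78 genes tested. MYCN 4 was high for Mme (5.56, against 2.83 to 3.23), Cdk6 (7.35, against 6.09 to 6.25) and Fas (4.95, against 4.39 to 4.44). MYCN 1 was high for Camta1 (11.03) and for the histone variant H2az1 (13.24), and MYCN 3 for Mybl1 (7.88). Among the means of 37 gene lists, MYCN 3 stood apart in skeletal muscle markers (8.59, against at most 5.21), and MYCN 4 in peroxisome genes (8.03, against at most 7.86) and red blood cell markers (5.54, against at most 5.02). Chance alone marks about 1 in 20 groups of this size, and groups of 3 arrays were not tested.

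The tumour groups differed from each other (limma's moderated F test, adjusted over all genes) in 11 of the named genes that are not shared. Apart from Mycn and Eftud2, these had been named for the widest spread in their lists. Their p-values thus follow from that choice and are no support. The range of the 3 tumour group means was 5.68 for the brightest probe set of Mycn (adjusted p = 8.25e-05), 5.43 for the granule protein Scg2 (7.17e-05), 4.62 for Tox3 (0.00229), 3.29 for Dpysl3 (0.00543) and 3.29 for Ier3 (0.000445). Cell cycle genes followed with 2.41 for Plk1 (0.00011), 2.19 for Ska3 (0.00143), 2.11 for Skp2 (0.00294), 1.90 for Cdc45 (0.000767) and 1.90 for H2ax (0.000465). Eftud2, a splicing GTPase, sat just above the limit with 0.50 (0.0159).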

How the results depend on the processing

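The count of shared genes depended most on its own limits. A spread limit of 0.25 left 151 higher and 328 lower genes, a limit of 1 gave 1204 and 1483, and a size limit of 2 units left 106 and 268. Leaving out the dimmest 40% of genes left 513 lower genes, all of them among the 806, and moved the median of all genes to 0.10. With the limit set at 0.25 of the difference the counts were 430 and 776. Without any single array they ran from 468 to 590 and from 743 to 875. Under the mean of all probe sets 435 and 793 genes were chosen, of which 326 and 621 were among the 522 and 806. The average difference of the 125 genes named reversed under none of the 24 refits, and 5 of them lost the call in at least 1: Mybl1 and Neurod1 without the 5 liver arrays, Mycn under array weights, and Mycn, Scg2 and Dpysl3 with the tumours pooled as 1 group. For the 109 shared genes among the 125, leaving out arrays could not reverse the average difference. Their tumour arrays all lie on one side of the adrenal arrays by the choice of genes, so the lack of reversals there is no support. No paired analysis was possible because the labels give the groups no common replicate numbers.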

Other observations

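The groups of genes in this part were put together after the values were seen, so their counts are a description. Mitochondrial fatty acid oxidation feeds the respiratory chain from lipids. Of 19 measured genes 18 fell and 1 rose, all 18 with no overlap, and 11 were shared (median -2.33). They included the carnitine enzyme Cpt2 (-2.91 ± 0.20), the chain-shortening dehydrogenases Acadm (-2.67 ± 0.19) and Acads (-2.05 ± 0.17), the trifunctional protein subunits Hadha (-2.33 ± 0.20) and Hadhb (-2.56 ± 0.26), and Eci1 (-3.47 ± 0.29). Markers of fat cells moved with this group: 9 of 9 fell, with means of 10.33 to 12.33 in adrenal and 5.01 to 9.02 in tumours, and their part was not tested. Without adrenal 2, the array with the highest of these means, 18 genes of the group fell and 11 were shared, with a median of -2.16. Breakdown of branched-chain amino acids gave 17 falls and 1 rise of 19, with 6 shared, among them Bckdha (-2.38 ± 0.21) and Hibadh (-2.21 ± 0.13).

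Of 9 homeobox genes of the Hoxb cluster 6 fell with no overlap and 3 did not pass the test, and Hoxb9 (-5.51 ± 0.21), Hoxb6 (-4.43 ± 0.29), Hoxb5 (-4.40 ± 0.26) and Hoxb4 (-2.29 ± 0.19) were shared. Tumour group means were 3.28 to 3.37 for Hoxb5, 3.98 to 4.17 for Hoxb6 and 4.82 to 5.10 for Hoxb4. Their falls and evenness are thus read near the bottom of the scale. Of 9 Hoxa genes 4 fell, of 7 Hoxc genes 3 fell and 1 rose (2 without adrenal 2), and of 8 Hoxd genes 1 rose, which was not called without adrenal 2. The shares over all genes were 25.7% for falls and 25.8% for rises, and these 3 clusters are too small to be set apart from them. The difference between the clusters was not tested. Of 16 genes of the outer zone and capsule of the adrenal gland 12 fell and 6 were shared: the signal proteins Shh (-4.93 ± 0.12) and Wnt4 (-4.60 ± 0.20), the angiotensin receptor Agtr1b (-4.34 ± 0.22), the growth factor receptor Fgfr2 (-4.39 ± 0.29), Lgr4 (-2.80 ± 0.28) and Cyp11b2. Low tumour group means also held for Agtr1b (3.37 to 3.54), Cyp11b2 (3.96 to 4.24) and Shh (4.13 to 4.48).

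On the rising side, 20 of 29 neural RNA-binding proteins rose, 3 fell and 9 were shared, among them Ptbp2 (3.02 ± 0.16), a splicing regulator of young neurons, Pcbp4 (3.15 ± 0.36), Nova2 (2.28 ± 0.26), Mex3d (2.27 ± 0.11) and Celf3 (2.13 ± 0.22). Without the 5 liver arrays 3 of them were shared. Of 26 regulators of actin and growth cones 16 rose, 3 fell (5 without adrenal 2) and 11 were shared (8 without the 5 liver arrays), with Fnbp1l (2.99 ± 0.15), Evl (2.97 ± 0.28), Myh10 (2.10 ± 0.17), Enah (1.71 ± 0.11) and Abi2 (1.76 ± 0.10) among the rises and Wasf2 (-1.11 ± 0.15) the fall. Zinc finger genes with names in Zfp gave 184 rises and 25 falls of 329, where 25.8% of all genes rose and 25.7% fell. Their median was 0.46. Among them were 38 shared rises and 1 shared fall, against 2.87% and 4.43% of all genes. There were 25 shared rises without the 5 liver arrays.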
